A study of Mus musculus with 8 samples.

Results

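The genes described here are 10 rapid immediate early genes of neurons: *Fos*, *Fosb*, *Junb*, *Egr1*, *Egr2*, *Egr4*, *Nr4a1*, *Npas4*, *Arc* and *Ier2*. They were taken as a list of symbols, each of which matched 1 Ensembl identifier, and so make up 10 of the 53379 genes counted. All 10 had counts in every sample, and all 10 were among the 16914 genes kept for testing by a filter on low counts. The counts come from bulk RNA sequencing of the cingulate cortex of mice, with 4 wild-type samples (WT) and 4 samples of *Mvp* knockout mice (Mvp KO).

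Both groups were male mice on a C57BL/6 background that had received no treatment. The WT group was *Mvp*+/+. The Mvp KO group was homozygous *Mvp*-/- for a gene trap, derived from 1 embryonic stem cell clone, in which a β-galactosidase and neomycin resistance cassette with a splice acceptor and a polyadenylation signal sits in the first intron of *Mvp*, the gene of the major vault protein. The mutation is constitutive and so is present in all cell types. The comparison asks which transcripts differ in the cingulate cortex when *Mvp* is lost. The age of these mice and how they were handled before dissection are not given in the sources used here.

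Immediate early genes are transcribed within minutes of a stimulus, without the need for new protein synthesis, and their mRNAs decay quickly. In cortical neurons, calcium entry through synaptic receptors and voltage-gated channels activates kinases that act on factors already bound to their promoters, among them CREB at the cyclic AMP response element and SRF at the CArG box. Most of their products are transcription factors that turn on a later wave of genes, while others, such as Arc, act at the synapse itself.

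Promoter sequences, 250 bases before to 50 bases after each annotated RefSeq start on GRCm38.p6, were at hand for 7 of the 10 genes, with 11 windows in all because *Egr2* has several starts, some of whose windows overlap. TGACG, the core of the cyclic AMP response element (CRE core), was searched on both strands like every motif here and was present in at least 1 window of each of the 7 genes and in 9 of the 11 windows, against 20.8% of the 32851 windows of all genes. The whole palindrome TGACGTCA, which contains TGACG, was in 0 of the 11 windows (1.79% of all windows), as were the AP-1 site TGANTCA (7.81%) and the EGR site GCGTGGGCG (0.612%). Within these windows the CArG box was found for *Egr2* alone (1.63% of all windows), and the TATA motif TATAAA for *Fos* and *Junb* (13.6%). Sequence farther than 250 bases before a start was not searched, so a gene without a match here may have the motif elsewhere. Windows of all 7 genes were searched, and those of 4 are printed because these genes stand for the ways in which the levels described below varied between samples: *Fos* and *Egr2*, which differed several-fold among most samples, and *Fosb* and *Npas4*, which were raised most in a single sample. Each sequence is given 5′ to 3′ on the strand of its gene, at chr12:85473640-85473939 (plus strand) for *Fos*, chr10:67537619-67537918 (plus) for *Egr2*, chr7:19309996-19310295 (minus) for *Fosb* and chr19:4989922-4990221 (minus) for *Npas4*. Capitals mark the matches of the CRE core (TGACG on either strand), the TATA motif and the CArG box.
Fos: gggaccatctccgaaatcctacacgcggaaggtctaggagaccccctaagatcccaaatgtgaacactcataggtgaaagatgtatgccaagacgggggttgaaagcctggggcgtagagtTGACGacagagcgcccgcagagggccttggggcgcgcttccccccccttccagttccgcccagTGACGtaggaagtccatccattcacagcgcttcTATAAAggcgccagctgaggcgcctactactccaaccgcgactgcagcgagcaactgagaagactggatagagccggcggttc
Egr2: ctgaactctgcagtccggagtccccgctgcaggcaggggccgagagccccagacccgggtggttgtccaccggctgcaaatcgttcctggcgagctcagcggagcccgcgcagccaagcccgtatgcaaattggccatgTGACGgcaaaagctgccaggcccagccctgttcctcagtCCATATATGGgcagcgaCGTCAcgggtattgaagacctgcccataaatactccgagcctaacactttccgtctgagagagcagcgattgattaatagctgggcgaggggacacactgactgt
Fosb: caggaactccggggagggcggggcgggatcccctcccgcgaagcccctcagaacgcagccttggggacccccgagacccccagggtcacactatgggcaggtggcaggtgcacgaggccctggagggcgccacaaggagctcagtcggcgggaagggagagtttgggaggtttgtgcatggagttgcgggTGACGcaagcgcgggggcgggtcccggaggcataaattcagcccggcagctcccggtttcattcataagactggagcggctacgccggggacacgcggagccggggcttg
Npas4: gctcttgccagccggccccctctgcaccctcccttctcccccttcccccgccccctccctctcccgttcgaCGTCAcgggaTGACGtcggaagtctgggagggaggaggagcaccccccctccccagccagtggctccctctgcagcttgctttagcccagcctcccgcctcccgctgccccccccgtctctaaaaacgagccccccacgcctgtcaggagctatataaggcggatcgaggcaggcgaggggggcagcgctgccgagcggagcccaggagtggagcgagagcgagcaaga

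Counted from the RefSeq start, the CRE core matches lay at bases -129 to -125 and -66 to -62 of *Fos*, -60 to -56 of *Fosb* and, on opposite strands, -179 to -175 and -169 to -165 of *Npas4*. The TATA motif lay at -33 to -28 of *Fos*. In *Junb*, whose window is not printed, it lay at bases 1 to 6, from the RefSeq start onward and not before it. In the window of *Egr2* the CArG box, at -72 to -63, lay between CRE core matches at -111 to -107 and, on the other strand, -55 to -51. These matches describe the letters of the windows, and no binding was measured here.

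Library depth ran from 28456504 to 42854368 counts per sample, and the 10 genes were counted with between 166 (*Ier2* in WT replicate 1) and 19622 (*Egr1* in WT replicate 4) reads, so counting error was small beside the differences between samples. Levels are given as CPM, that is, counts made comparable between libraries by their size and TMM factor. *Mvp* itself was at 6.83 ± 1.0 CPM in WT against 1.63 ± 0.334 CPM in Mvp KO (SD, n = 4 each), and each WT sample was above each Mvp KO sample. Neuron markers were abundant in each sample, with *Snap25* at 2740 to 3790 CPM and the glutamatergic marker *Slc17a7* at 1340 to 2730 CPM, while the choroid plexus markers *Ttr* and *Kcnj13* summed to 1.03 to 4.84 CPM. WT replicate 4 stood apart: it was at 71.5 on the leading principal component of log2 CPM, which held 46.0% of the variance, with the rest between -20.4 and -2.78, so the results of the 10 genes, and the genotype differences of the gene lists read beside them, are given with and without it. In bulk tissue, fewer cells that express a gene and less RNA per cell cannot be told apart.

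Per kilobase of exon, the mean levels over the 7 samples other than WT replicate 4 placed *Arc* highest, at 84.2 ± 27.7 CPM per kb (SD, n = 7), followed by *Egr1* at 72.1 ± 20.3 and *Nr4a1* at 46.1 ± 15.3 CPM per kb. These 3 genes exceeded 95.1% or more of all genes tested on this scale. The length used was that of all annotated exonic bases of a gene, merged over its transcripts, which can exceed the length of its main mRNA. It was 3057 bases for *Arc*, 4484 for *Egr1* and 6243 for *Fosb*. The order between genes thus depends on the annotation, and an order by mRNA length was not computed. *Fos* (32.4 ± 19.3 CPM per kb) and *Junb* (32.4 ± 12.6 CPM per kb) came next and were not in a fixed order, since *Fos* was the higher in 4 of 8 samples. *Npas4* (13.5 ± 7.58 CPM per kb) and *Egr4* (13.2 ± 3.86 CPM per kb) likewise changed places in 4 of 8 samples. The lowest were *Ier2* at 7.74 ± 5.18, *Fosb* at 7.53 ± 1.05 and *Egr2* at 7.49 ± 3.27 CPM per kb, whose order also varied between samples. *Egr1* was above *Nr4a1*, and *Nr4a1* above *Fos*, in 8 of 8 samples.

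*Fos*, *Fosb* and *Junb* encode subunits of the dimeric transcription factor AP-1, in which a Fos protein pairs with a Jun protein. *Fos* (ENSMUSG00000021250, GRCm38 chr12:85473890-85477273, plus strand) had 32.5, 82.3, 47.9 and 153 CPM in WT replicates 1 to 4 and 129, 147, 40.3 and 54.3 CPM in Mvp KO replicates 1 to 4. Its low samples were thus found in both genotypes, and so were its high ones, with WT replicate 4 only 1.04 times the highest of the other samples. *Junb* (ENSMUSG00000052837, chr8:84974484-84978718, minus strand) had 39.7, 71.0, 54.4 and 131 CPM in WT and 114, 113, 54.8 and 74.2 CPM in Mvp KO. Its samples followed nearly the order of *Fos*, over a narrower range. Of the exonic bases of *Junb*, 7.5% lie opposite *Prdx2* on the other strand, which would matter if the counting did not use strand; its setting is not given in the sources used here.

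*Fosb* (ENSMUSG00000003545, chr7:19302696-19310051, minus strand) varied in another way. It had 37.1, 48.9, 41.2 and 213 CPM in WT and 54.1, 48.1, 44.7 and 55.0 CPM in Mvp KO. Outside WT replicate 4 its highest level was 1.48 times its lowest, against 4.53 times for *Fos* and 2.87 times for *Junb*, while WT replicate 4 held 3.87 times the highest of the other samples. The ratio of *Fosb* to *Fos* in CPM was 0.42 and 0.327 in Mvp KO replicates 1 and 2. There *Fos* was high, while *Fosb*, at 54.1 and 48.1 CPM, stayed within its narrow range outside WT replicate 4. The ratio was 1.14, 1.11 and 1.01 in WT replicate 1 and Mvp KO replicates 3 and 4. It was highest, at 1.39, in WT replicate 4, where both genes were high.

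The EGR genes encode zinc finger transcription factors that bind a shared GC-rich site. *Egr1* (ENSMUSG00000038418, chr18:34859823-34864984, plus strand) had 208, 421, 276 and 623 CPM in WT and 418, 413, 251 and 275 CPM in Mvp KO. Its level fell into a higher set of WT replicate 2 and Mvp KO replicates 1 and 2, within 413 to 421 CPM, and a lower set of 208 to 276 CPM, with WT replicate 4 above both. *Egr2* (ENSMUSG00000037868, chr10:67535475-67542188, plus strand) had 11.7, 28.3, 17.8 and 57.2 CPM in WT and 42.6, 36.7, 17.6 and 23.5 CPM in Mvp KO. *Egr4* (ENSMUSG00000071341, chr6:85511121-85513589, minus strand) had 21.2, 36.5, 18.6 and 75.1 CPM in WT and 40.9, 30.2, 22.1 and 29.0 CPM in Mvp KO. Both had the same 4 highest samples as *Egr1*, although for *Egr4* Mvp KO replicates 2 and 4 lay close together.

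*Nr4a1* (ENSMUSG00000023034, chr15:101254269-101274795, plus strand) encodes an orphan nuclear receptor. Its levels were 86.6, 172, 129 and 274 CPM in WT and 215, 243, 130 and 156 CPM in Mvp KO. *Ier2* (ENSMUSG00000053560, chr8:84661331-84662852, minus strand) encodes a small nuclear protein. It had 4.90, 10.5, 7.72 and 14.8 CPM in WT and 15.5, 28.02, 7.13 and 8.77 CPM in Mvp KO. *Ier2* was the only 1 of the 10 genes whose highest sample was not WT replicate 4: Mvp KO replicate 2 was highest, and WT replicate 4 held 0.528 times its level.

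*Arc* (ENSMUSG00000022602, chr15:74669083-74672570, minus strand) encodes a protein of the postsynaptic side that takes part in the removal of AMPA receptors. It had 117, 300, 222 and 475 CPM in WT and 312, 350, 183 and 316 CPM in Mvp KO, with Mvp KO replicate 4 among the higher samples, unlike *Fos* or *Egr1*. *Npas4* (ENSMUSG00000045903, chr19:4984355-4990316, minus strand) encodes a bHLH-PAS transcription factor that is induced by calcium entry and is largely restricted to neurons. Its levels were 23.0, 38.4, 46.4 and 465 CPM in WT and 63.3, 115, 31.6 and 71.5 CPM in Mvp KO. WT replicate 4 was thus 4.04 times the highest and 10.04 times the median of the other samples, the largest such excess among the 10 genes. In that sample the ratio of *Npas4* to *Fos* was 3.03, against 0.466 to 1.32 in the other 7.

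**Figure D1:**
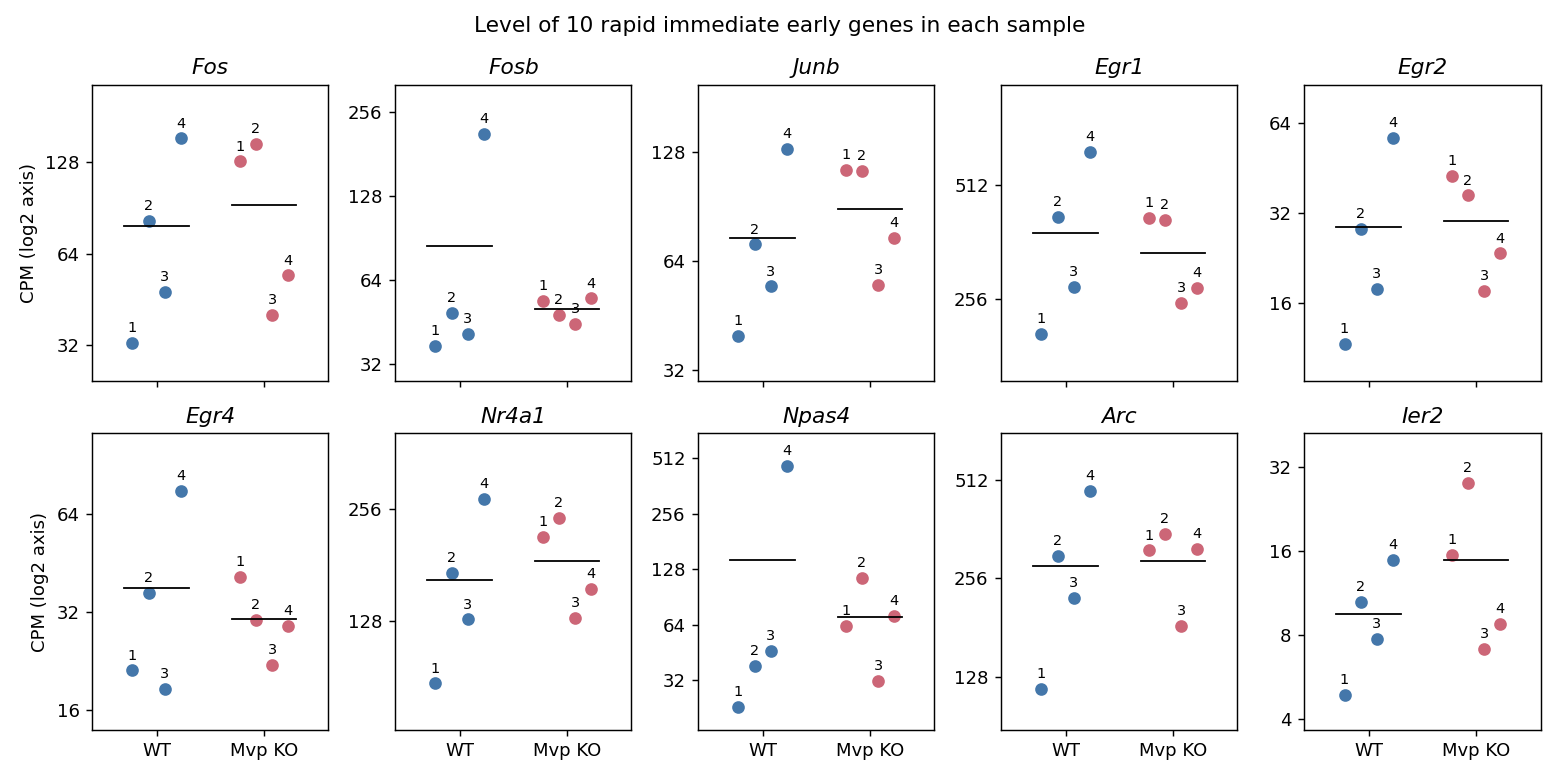
Level of each of the 10 genes in CPM (log2 axis, a separate scale per gene) in 4 WT and 4 Mvp KO samples; points are samples numbered by replicate and horizontal lines are the mean of each genotype. WT replicate 4 is highest for 9 genes and lies far above all others for *Fosb* (213 CPM) and *Npas4* (465 CPM), and the genotypes overlap for each gene.

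Set against the median of the other 7 samples, the median log2 difference of the 10 genes was 1.23 in WT replicate 4, where single genes ran from 0.66 (*Arc*) to 3.33 (*Npas4*). In this sample 6 of the 10 genes were at least 2-fold higher than that median, against 3.96% of all genes tested, and 9 of the 10 were highest there, against 29.2% of all genes. The other samples were not uniform either. WT replicate 1 had a median difference of -1.04 and was the lowest sample for 9 of the 10 genes, against 8.63% of all genes, with *Egr4* as the exception. Mvp KO replicates 1 and 2 and WT replicate 2 were at 0.546, 0.641 and 0.199, and WT replicate 3 and Mvp KO replicates 3 and 4 at -0.469, -0.619 and -0.101. For *Fos*, *Egr1*, *Egr2*, *Egr4*, *Nr4a1* and *Ier2*, the 4 highest samples were WT replicates 2 and 4 and Mvp KO replicates 1 and 2. This set, in any order, held the 4 highest samples of 3.39% of all genes tested. The set was noticed in these values and was not tested. In *Junb*, *Arc*, *Fosb* and *Npas4*, Mvp KO replicate 4 was above WT replicate 2.

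**Figure D2:**
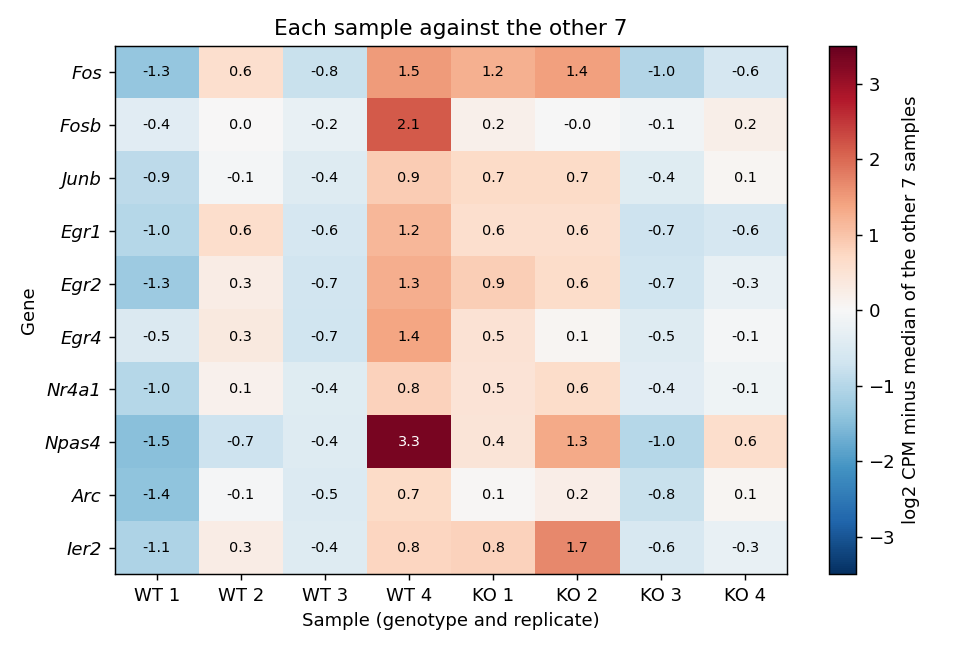
Difference of each sample (columns) from the median of the other 7 in log2 CPM, for each of the 10 genes (rows), with red for higher and blue for lower levels. WT replicate 4 is higher for all 10 genes, up to 3.3 for *Npas4*, WT replicate 1 is lower for all 10, and *Fosb* is close to 0 in most other samples.

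The levels of these genes differed between samples of 1 genotype more than those of most genes. The biological coefficient of variation, edgeR's estimate of the spread between samples of a genotype beyond counting error, was 31.9% (*Egr1*) to 81.6% (*Npas4*) for the 10 genes, against a median of 15.4% over all genes tested, and each of the 10 exceeded 90.5% or more of all genes. Without WT replicate 4 the estimate for *Npas4* was 37.9%, that for *Fos* was 46.2% and that for *Ier2* was 44.5%. *Fosb* went from 50.3% to 10.7%, close to the median of 11.5% over all genes, so its spread rested on that 1 sample. The other 9 genes still exceeded 89.8% or more of all genes without it.

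Over the 7 samples other than WT replicate 4, the 10 genes varied together. The median Pearson correlation of log2 CPM over their 45 pairs was 0.855, with 31 pairs at 0.8 or above, while the median correlation of a member with any other gene tested was 0.00544. The median Spearman correlation was 0.821. These values describe 7 points that share libraries and scaling and that fall into higher and lower sets for several genes, and no p is attached to them. Without WT replicate 1 and Mvp KO replicate 2, the samples farthest from the median of the mean level, the median was 0.815, and with all 8 samples it was 0.847. Taken as differences from the mean of each genotype, the median over the 7 samples was 0.822.

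The highest correlation was that of *Junb* with *Egr2*, at 0.98, and *Junb* with *Nr4a1*, *Egr2* with *Nr4a1*, and *Fos* with *Egr2* followed at 0.978, 0.976 and 0.963. *Fosb*, *Egr4* and *Npas4* had the lowest median correlations with the other members, at 0.78, 0.791 and 0.793, against 0.852 to 0.943 for the other 7 genes. *Fosb* was at 0.586 with *Ier2* and 0.653 with *Fos*, and the lowest of all pairs was *Egr4* with *Npas4*, at 0.468. *Npas4* came nearest in its pattern to *Ier2* (0.878), *Junb* (0.868) and *Arc* (0.861). With WT replicate 4 included, the correlation of *Fosb* with *Npas4* went from 0.675 to 0.907. With WT replicates 1 and 4 and Mvp KO replicate 2 all left out, the median correlation of *Npas4* with the other members was 0.509. The next lowest was that of *Fosb*, at 0.742, so the co-variation of *Npas4* rested more on those samples.

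**Figure D3:**
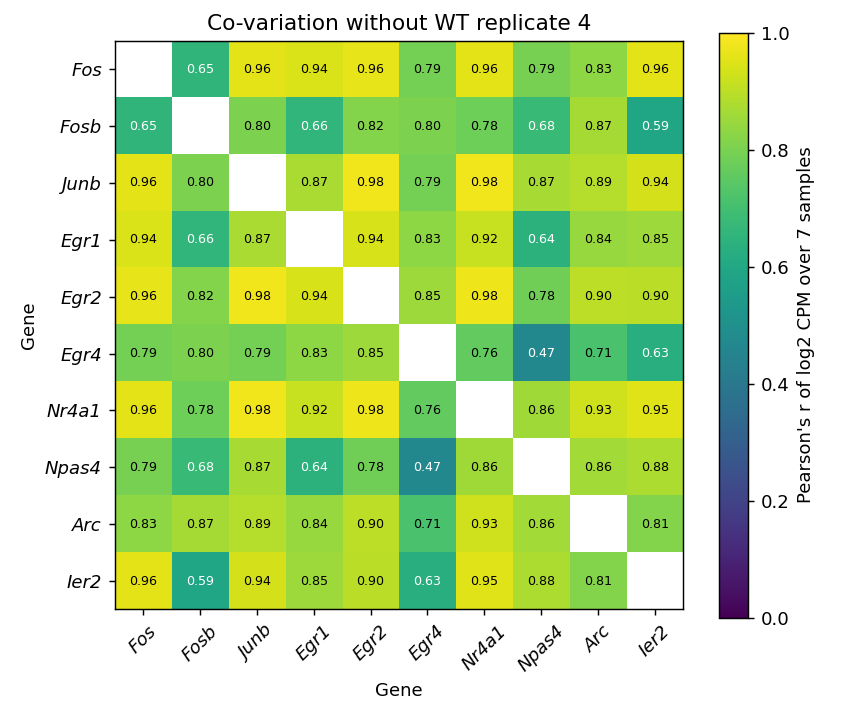
Pearson correlation of log2 CPM for each pair of the 10 genes over the 7 samples other than WT replicate 4, from 0 (dark) to 1 (yellow). All pairs among *Fos*, *Junb*, *Egr2*, *Nr4a1* and *Ier2* are at 0.897 or above, and the darkest cell is *Egr4* with *Npas4* at 0.47.

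Among 11543 other genes with a mean of at least 5 CPM, 95 (0.823%) had a mean correlation of 0.8 or above with the 10 genes over these 7 samples. The highest, at 0.903, was *1700016P03Rik*, a noncoding transcript at chr11:75172560-75177633 on the plus strand that contains the microRNA genes *Mir132* and *Mir212*, both known to be induced by CREB. Its levels ran from 6.43 CPM in WT replicate 1 to 24.1 CPM in Mvp KO replicate 2, with 19.2 CPM in WT replicate 4. The microRNAs themselves were not measured in these libraries. The next was *Sh2d3c* (0.902), at 13.2 to 17.8 CPM, followed by *Rbm17*, *Acaa1a*, *Nit1*, *Pard3*, *Hjurp*, *Snhg20*, *Traf4* and *Ercc8* with 0.878 to 0.892. These had narrow ranges, such as 35.6 to 41.2 CPM for *Rbm17*. In WT replicate 4, *Sh2d3c* was at its highest, 18.3 CPM, and *Rbm17* was inside its range, at 39.9 CPM, while *Hjurp* was at 54.8 CPM, below its range of 85.8 to 97.4 CPM over the other samples.

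Between the genotypes, 0 of the 10 genes passed an adjusted p of 0.05 by the quasi-likelihood test of edgeR, adjusted after Benjamini and Hochberg over all genes tested, against 0.00591% of all genes (1 gene, *Mvp*). None had an unadjusted p under 0.05, and 0 passed by DESeq2's Wald test, which returned no p for *Fosb* and *Npas4*, or by limma voom. The genotypes overlapped for all 10 genes, while 1.52% of all genes tested did not overlap. The log2 fold changes, Mvp KO against WT, were 0.23 for *Fos* (standard error 0.534, 95% interval -0.97 to 1.43), 0.27 for *Junb*, -0.17 for *Egr1*, 0.07 for *Egr2*, -0.31 for *Egr4*, 0.17 for *Nr4a1*, 0.06 for *Arc* and 0.65 for *Ier2* (standard error 0.458, -0.38 to 1.68). Those of *Fosb* and *Npas4* were -0.75 (standard error 0.527, -1.94 to 0.44) and -1.02 (standard error 0.898, -3.05 to 1.0). Adjusted p values lay between 0.969 and 0.986. With a median standard error of 0.140 over all genes, the 10 genes were measured with less precision than most: a 2-fold lower level in Mvp KO lay inside the intervals of *Fosb*, *Egr4* and *Npas4*, and a 2-fold higher level inside those of *Fos*, *Junb*, *Egr2* and *Ier2*. Exact permutation tests on the mean log2 CPM (two-sided, n = 4 per genotype) gave p between 0.4 and 1.0, where the smallest p possible is 0.0286.

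The genotype means show where these values come from. *Npas4* was at 143 ± 215 CPM in WT and 70.4 ± 34.5 CPM in Mvp KO (SD, n = 4 each), and *Fosb* at 85.0 ± 85.3 CPM and 50.5 ± 4.90 CPM. Without WT replicate 4 the WT means were 35.9 ± 11.9 CPM and 42.42 ± 5.998 CPM (SD, n = 3), below those of Mvp KO. *Fos* was at 79.0 ± 53.8 CPM in WT and 92.6 ± 53.2 CPM in Mvp KO, *Egr1* at 382 ± 184 and 339 ± 88.9 CPM, and *Arc* at 279 ± 151 and 290 ± 73.3 CPM. For *Fos*, *Egr1* and *Arc* the SD of each genotype was larger than the difference between the means.

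Leaving out WT replicate 4 turned the direction of *Fosb*, *Egr1*, *Egr4* and *Npas4*, and all 10 genes then had a positive log2 fold change, with a median of 0.584 against 0.00326 over all genes, of which 51.7% were positive. With 8 samples the median of the 10 had been 0.0626, with 6 positive and 4 negative. Since these genes vary together, the 10 signs are not separate observations. Again 0 of the 10 passed the adjusted threshold, against 0.00583% of all genes (*Mvp*), and 1 of the 10, *Fosb*, had an unadjusted p under 0.05, against 1.34% of all genes. For *Fosb* the log2 fold change was 0.25 (95% interval 0.01 to 0.49, unadjusted p = 0.0417, adjusted p = 0.999943 by edgeR's quasi-likelihood test). The log2 fold change was 0.97 for *Npas4* (95% interval -0.05 to 1.99), 0.95 for *Ier2* (-0.26 to 2.15), 0.77 for *Fos* (-0.47 to 2.02) and 0.70 for *Junb* (-0.02 to 1.41), and the lowest was 0.17 for *Egr1*. The genotypes still overlapped for each of the 10 genes, while 2.80% of all genes did not overlap. Exact permutation tests (3 against 4 samples, two-sided) gave p between 0.114 and 0.743, with 0.171 for *Fosb*.

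**Figure D4:**
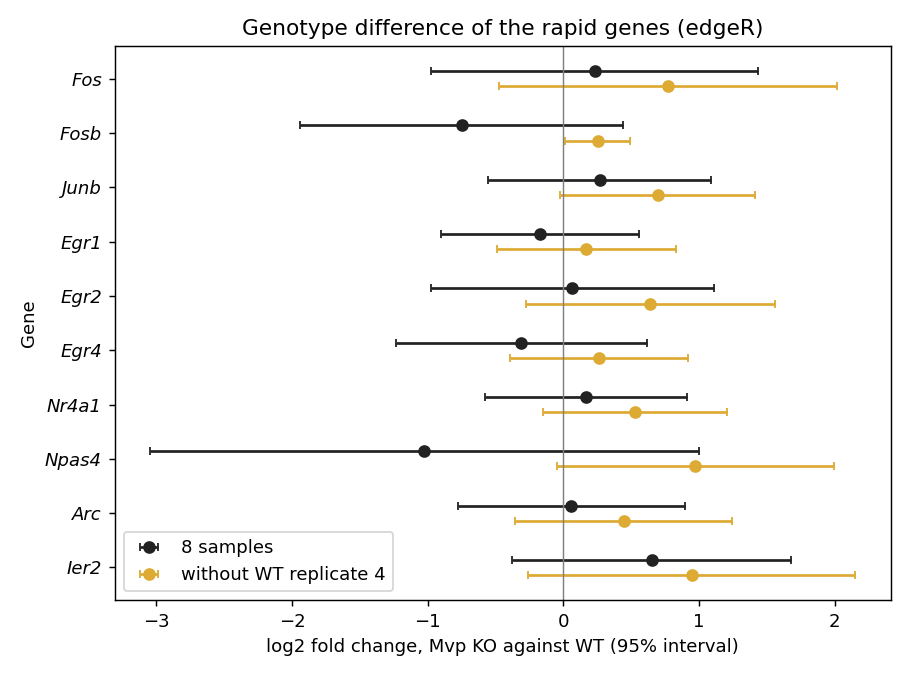
Log2 fold change of each of the 10 genes, Mvp KO against WT, with 95% intervals from edgeR, for all 8 samples (black) and without WT replicate 4 (yellow). The intervals of all 8 samples include 0 for each gene. Without WT replicate 4 every estimate is positive, and the unadjusted interval of *Fosb* alone (0.01 to 0.49) is clear of 0. The adjusted p of *Fosb* in that fit is 0.999943 by edgeR's quasi-likelihood test.

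Other genes of the same response were read beside the 10. Of 20 further rapid response genes, 0 passed the test between the genotypes, with or without WT replicate 4, and the median log2 fold change was -0.163 with all samples (9 positive) and 0.0756 without it (15 positive). In WT replicate 4, 11 were at least 2-fold above and 1 at least 2-fold below the median of the other samples, against 3.96% and 5.19% of all genes tested. The transcription factor gene *Atf3* was at 23.5 CPM there, against 0.842 to 5.01 CPM in the others, and *Gadd45b*, a gene of DNA demethylation and stress responses, at 72.4 CPM against 14.7 to 29.1 CPM. *Ccn1*, a matrix protein gene controlled by SRF, was at 41.2 CPM in Mvp KO replicate 2 and 26.6 CPM in WT replicate 4, with Mvp KO replicate 1 between them and the other 5 samples at 3.55 to 9.51 CPM, so its 3 highest samples were those of *Ier2*. *Klf4*, a zinc finger factor gene, was lowest in WT replicate 4, at 1.30 CPM against 3.84 to 11.8 CPM. Over the 7 samples the median of the mean correlation of these 20 genes with the 10 was 0.526. The ends of that range, named after their values were seen, are the phosphatase gene *Dusp1* at 0.875, which had 118 CPM in Mvp KO replicate 2, and the synaptic scaffold gene *Homer1* at -0.467, which had 204 CPM in that sample and 1210 CPM in WT replicate 4.

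The later response genes separated WT replicate 4, the sample with the highest *Fos*, from Mvp KO replicates 1 and 2, which came next in *Fos*. Of 10 such genes, 0 passed the test between the genotypes, with all 10 log2 fold changes negative and a median of -0.974. These values rested on WT replicate 4: without it 0 passed, 5 of the 10 were negative and the median was 0.00763. In WT replicate 4, 8 were at least 2-fold higher than the median of the other samples, against 3.96% of all genes tested. The median difference of the 10 later genes in that sample was 2.24. The synaptic pentraxin gene *Nptx2* was at 1190 CPM in this sample against 44.5 to 107 CPM in the others, *Inhba*, the activin subunit gene, at 321 CPM against 16.0 to 34.9 CPM, the prostaglandin synthase gene *Ptgs2* at 602 CPM against 39.2 to 68.1 CPM, and the neurotrophin gene *Bdnf* at 599 CPM against 43.4 to 86.9 CPM. In Mvp KO replicates 1 and 2, where the median difference of the 10 rapid genes was 0.546 and 0.641, that of the later genes was -0.342 and -0.339. Over the 7 samples the median of their mean correlations with the 10 rapid genes was -0.346.

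Of 20 genes for kinases, receptors and factors that act upstream of the immediate early genes, 0 passed the test with or without WT replicate 4, where 0 were 2-fold higher or lower. Their median log2 fold change was -0.018 with all samples and 0.00897 without that one. *Srf* was at 73.4 CPM there and at 40.1 to 60.6 CPM in the other samples, *Crebbp*, which encodes the coactivator that CREB recruits, at 48.4 CPM against 66.7 to 72.1 CPM, and the kinase gene *Camk2a* at 2360 CPM against 2530 to 3680 CPM. Among 6 genes for proteins that bind AU-rich mRNA, with a median log2 fold change of 0.112 (0.0882 without WT replicate 4), 0 passed the test and 0 differed 2-fold in WT replicate 4, and *Zfp36*, itself an immediate early gene that promotes decay of such mRNA, was highest in Mvp KO replicate 2 (9.15 CPM, with 2.86 CPM in WT replicate 4 and 3.36 to 4.81 CPM in the rest). Among 6 heat shock genes, with a median log2 fold change of -0.0742 (-0.0405 without WT replicate 4), 0 passed the test and 0 differed 2-fold in that sample.

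**Figure D5:**
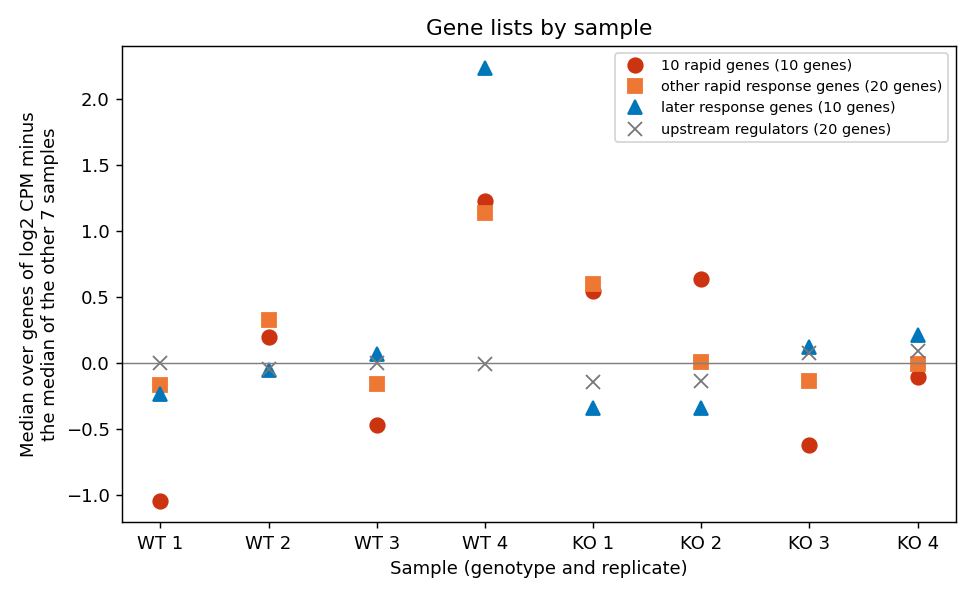
Median, over the genes of each list, of the difference of a sample from the median of the other 7 in log2 CPM, for the 10 rapid genes (circles), 20 other rapid response genes (squares), 10 later response genes (triangles) and 20 upstream regulators (crosses). In WT replicate 4 the later genes stand highest, at 2.24, above the rapid genes at 1.23, while in Mvp KO replicates 1 and 2 the rapid genes are at 0.546 and 0.641 and the later genes at -0.342 and -0.339.

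Markers of cell types also differed between the samples with high and low levels. The 3 oligodendrocyte markers *Mbp*, *Mog* and *Mobp* summed to 966, 1187, 1569 and 697 CPM in WT and 3161, 2098, 1088 and 848 CPM in Mvp KO, so Mvp KO replicates 1 and 2 were highest both here and, apart from WT replicate 4, for *Fos*. WT replicate 3 had the highest sum of the WT samples and was low in *Fos*, and WT replicate 4 had the lowest sum with the highest *Fos*. The mean correlation of these markers with the 10 genes over 7 samples had a median of 0.615. All 3 had a positive log2 fold change, with a median of 0.669 (0.516 without WT replicate 4), and 0 passed the test either way. In WT replicate 4 all 5 neuron markers were at their highest, as were 29.2% of all genes tested, with a sum of 9968 CPM against 6862 to 7957 CPM. *Snap25* (3790 CPM, up to 3660 elsewhere), *Rbfox3* (176, up to 173) and *Syt1* (2580, up to 2350) exceeded the other samples by little. *Slc17a7* (2730, up to 1680) and *Gad1* (694, up to 443) exceeded them by more. All 4 haemoglobin genes were at least 2-fold lower in that sample, against 5.19% of all genes, with a sum of 16.2 CPM against 23.3 to 54.2 CPM. Of 5 striatal markers 4 were highest there, *Adora2a* at 18.4 CPM (1.80 to 2.64 CPM elsewhere), *Ppp1r1b* at 101 CPM (29.9 to 44.4), *Rgs9* at 21.4 CPM (7.60 to 13.8) and *Drd1* at 24.4 CPM (10.3 to 20.3), of which *Adora2a* and *Ppp1r1b* were at least 2-fold higher. The fifth, *Drd2*, was at 1.52 CPM, within its range of 0.622 to 2.08 CPM. The sums of the astrocyte, microglia and endothelial markers ran from 1543 to 1840, 187 to 212 and 160 to 241 CPM, and none of these 12 genes was 2-fold higher or lower in WT replicate 4. The part of cell composition in the levels of the 10 genes was not tested.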

How the data were processed

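The authors deposited raw counts per gene, which they made from single-end 50-base reads of stranded, polyadenylated RNA libraries (cutadapt 1.10, Bowtie2 2.2.8 against ribosomal RNA, STAR 2.5.3a on mm10, htseq-count of HTSeq 0.6.1p1 with Ensembl annotation). The mode and strand setting of the counting are not given in the sources used here. Samples with an RNA integrity number under 8 had been left out by the authors. Groups and replicate numbers came from the sample labels, 0 columns of the table were left unused, and p-values judge the genotype difference against the spread between these samples.

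Symbols and positions came from GENCODE vM21 on GRCm38 (53274 of 53379 identifiers found). The tests used edgeR 4.0.16 under R 4.3.3: filterByExpr (minimum count 10, minimum total 15), TMM scaling, robust quasi-likelihood fits with genotype as the only term, and Benjamini-Hochberg adjustment across the tested genes at 0.05. CPM are TMM-scaled, and log2 CPM carries a prior count of 2. DESeq2 1.42.0, limma 3.58.1 (voom with quality weights), other filters, DESeq2's size factors, the replicate number as a block and leaving out each sample were alternatives. The fits were checked on simulated counts. Single values were compared by exact permutation over the 70 arrangements of 8 samples or the 35 of 7.

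The 10 genes, the gene lists and the decision to show WT replicate 4 apart were chosen with earlier results of these data known. Genes outside the lists were named by rule: the 10 with the highest mean correlation with the members over 7 samples at a mean of at least 5 CPM, and, from the response lists, up to 4 with the largest difference of WT replicate 4. *Ccn1*, *Mrtfa* and *Mrtfb* were listed under older symbols and matched through RefSeq synonyms. *Folr1*, a choroid plexus marker, did not pass the filter. Of the marker list of oligodendrocytes, 1 gene is not reported here. Promoter windows are RefSeq's on GRCm38.p6; *Arc*, *Ier2* and *Egr1* have no window in the table used. Distances between the RefSeq start and the start of the GENCODE gene were 0 bases for *Fos*, 6 for *Fosb*, 345 for *Npas4* and 2394 for the *Egr2* window shown. For the genes whose windows are not printed they were 0 for *Egr4*, 30 for *Junb* and 12577 for *Nr4a1*. Figures were drawn with Python 3.11.15 and matplotlib 3.10.9.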

Additional observations from a re-analysis of the deposited data

Results flagged for a closer look

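In 24 groups of 4 samples of 1 genotype (the 10 genes, *Mvp* and the total count in each), the gap of the most extreme sample to its neighbour, divided by the range of the group, was compared with Dixon's 95% critical value. In 4 groups it was larger, where about 1.2 would be expected by chance for independent, normally distributed groups. The ratio was taken on CPM without logarithms, and the 10 genes varied together. The expected number is therefore only a rough guide. WT replicate 4 was already known to stand apart, so its values below are not separate findings.

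For *Fosb*, WT replicate 4 held 212.7 CPM, with a range of 37.1 to 48.9 CPM over the remaining WT samples (ratio 0.933). For *Npas4*, the same sample held 465.3 CPM, with 23.0 to 46.4 CPM over the remaining WT samples (ratio 0.947). The other 8 of the 10 genes did not pass the critical value in either genotype. *Mvp* stood at 2.131 CPM in Mvp KO replicate 3, and at 1.44 to 1.51 CPM in the remaining Mvp KO samples (ratio 0.903). The total of WT replicate 2 was 42854368 counts, and those of WT replicates 1, 3 and 4 ran from 33408202 to 34760784 (ratio 0.857). The cause of these values was not tested.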

How the results depend on the processing

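Over 14 results, the alternatives gave 184 values, of which 156 kept their direction and their side of the threshold or moved little, 19 reversed and 9 moved. The cause of these changes was not tested. No fit, of 15, called any of the 10 genes. Their lowest adjusted p over all fits was 0.846 by edgeR's quasi-likelihood test with no filter, and the lowest unadjusted p was 0.0417, that of *Fosb* without WT replicate 4. With limma voom the log2 fold change turned positive for *Fosb* (0.15), *Egr1* (0.0046), *Egr4* (0.19) and *Npas4* (0.31). Across the 8 fits that each left out 1 sample, it ran from -0.094 to 0.77 for *Fos*, -1.01 to 0.25 for *Fosb*, -0.38 to 0.17 for *Egr1*, -0.20 to 0.64 for *Egr2*, -0.55 to 0.26 for *Egr4*, -0.050 to 0.53 for *Nr4a1*, -1.40 to 0.97 for *Npas4* and -0.20 to 0.45 for *Arc*, while that of *Junb* (0.052 to 0.70) and *Ier2* (0.14 to 0.95) kept its sign. The number of genes called was 1, and 2 with DESeq2's Wald test and with limma voom (*Bc1* and *Mvp*). It was 0 to 1 when 1 sample was left out. Among these smaller fits, *Mvp* was called only if the sample dropped was WT replicate 4 or Mvp KO replicate 3. The rest called 0 genes. They thus missed the targeted gene itself, whose means over all samples were 6.83 CPM in WT and 1.63 CPM in Mvp KO. The lack of a call for the 10 genes therefore does not show that they were unchanged.

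With the replicate number as a block, 0 genes were called, so *Mvp* was not called either. The log2 fold change was 0.028 for *Npas4*, against -1.02 without the block, and -0.30 for *Fosb*, against -0.75. Deviations from the genotype means correlated at 0.0548, 0.287, -0.00671 and 0.0507 between samples of equal number. The WT mean includes WT replicate 4, which stood apart, so these values cannot show whether samples of equal number share a batch. The labels give a replicate number and no batch. The block changed no call of the 10 genes.

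The median correlation of the 10 genes stayed between 0.788 and 0.899 when 1 of the 7 samples was left out, and was 0.815 without the pair of samples farthest from the median, an alternative chosen after seeing the data. The fold changes of the gene lists without WT replicate 4 were also added after seeing the data. The median difference of WT replicate 4 was 1.47 against the other 3 WT samples. Each of the 10 genes had 166 or more counts in every sample, so the width of their intervals reflects the spread between 4 samples per genotype rather than depth.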
